A study of Mus musculus with 2 samples.

Results

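The contraction of a muscle fibre is set off by calcium, and 35 genes whose products move, store, sense or respond to that calcium are described here, out of 32285 genes in the deposited matrices. The genes were taken by symbol and were grouped by role: voltage sensor, release channel, triad structure, luminal sarcoplasmic reticulum, pump and buffer, store-operated entry, and the calmodulin, CaMKII and calcineurin branch. Single-nucleus RNA sequencing (snRNA-seq), which counts RNA molecules in isolated nuclei by unique molecular identifiers (UMIs), was done on tibialis anterior (TA) muscle with 1 library per genotype. Each library pooled TA muscles from both legs of 2 male mice, which were 6 weeks old. The library labelled KO came from Myf6-Cre+ Bcl6 fl/fl mice (M-Bcl6 KO), in which Cre under the skeletal-muscle Myf6 promoter acts on loxP sites around exons 7 to 9 of Bcl6, the gene of a transcriptional repressor. The library labelled WT came from Myf6-Cre+ Bcl6 wt/wt littermates (M-Bcl6 WT), so both groups carried Cre. With 1 library per genotype no difference has a replicate check. All intervals are exact 95% intervals that cover counting error only.

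In a fibre at rest, calcium is held in the sarcoplasmic reticulum by buffers such as calsequestrin. An action potential in the transverse tubule is sensed by the Cav1.1 channel complex, which opens the ryanodine receptor across the triad junction. SERCA pumps then return calcium to the store, and calcium bound to calmodulin activates CaMKII and the phosphatase calcineurin. Fast fibres are known for SERCA1, parvalbumin and calsequestrin 1, and slow fibres for SERCA2 and calsequestrin 2.

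The 2 libraries held 3798 and 4096 barcodes, for WT and KO, and 11974138 and 12026013 UMIs. Of these, 3674 and 3944 nuclei were kept, and 6 barcode sequences occurred in both libraries. Myonuclei numbered 2407 for WT and 3087 for KO, with a median of 3127 and 2706 UMIs. The 7 myonuclear markers (Ttn, Neb, Ckm, Tnnt3, Dmd, Mybpc1 and Acta1, none of them among the 35) summed to at least 49261 counts per 1000000 UMIs (CPM) in every myonuclear cluster and to at most 10577 CPM in the others. Bcl6 was higher in the library labelled KO, at 502 CPM against 167 CPM in the library labelled WT. The counts are per gene, so the deleted exons could not be read apart from the rest of the transcript, and directions below are stated by library label. A myonuclear cluster with Mirg, Rian and Meg3 among its leading genes held 16 nuclei labelled WT and 349 labelled KO, and a cluster led by Myh7 held 0 and 18.

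Each myonucleus was assigned to the Myh gene with the most UMIs, where Myh4, Myh1, Myh2 and Myh7 mark fibre types IIB, IIX, IIA and I. In the library labelled WT, 701 nuclei (29.1%) were Myh4-main, 1155 (48.0%) Myh1-main, 236 (9.80%) Myh2-main and 2 Myh7-main, and 313 (13%) had no main Myh gene. In the library labelled KO the numbers were 612 (19.8%), 1174 (38.0%), 482 (15.6%), 19 (0.615%) and 800 (25.9%). The 35 genes together took 2.04% of the UMIs of myonuclei labelled WT and 1.84% of those labelled KO.

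Of the calcium-handling genes, Casq2 and Pvalb had the largest differences between the fast fibre types in both libraries, in opposite directions. A gene was called where its log2 ratio was 1.5-fold or more past the median of all genes, in the same direction in both libraries, with at least 200 UMIs. Between Myh2-main and Myh4-main nuclei, 29 of the 35 could be compared. Of these, 5 were higher in Myh2-main nuclei (Casq2, Srl, Stim1, Hrc and Camk2b) and 4 lower (Pvalb, Cacng1, Camk2a and Ppp3cb). Over all 4340 genes compared, 13.5% were called higher and 10.3% lower, so neither share of the 29 stood far from that background. The call rule itself asks for 1 direction in both libraries. Of the 29 genes, 8 lay above and 15 below the median in both, beside 1675 above and 1675 below of the 4340 genes. No p-value is given, since the 2 libraries differ in genotype and each fibre type was read once in each.

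**Figure D1:**
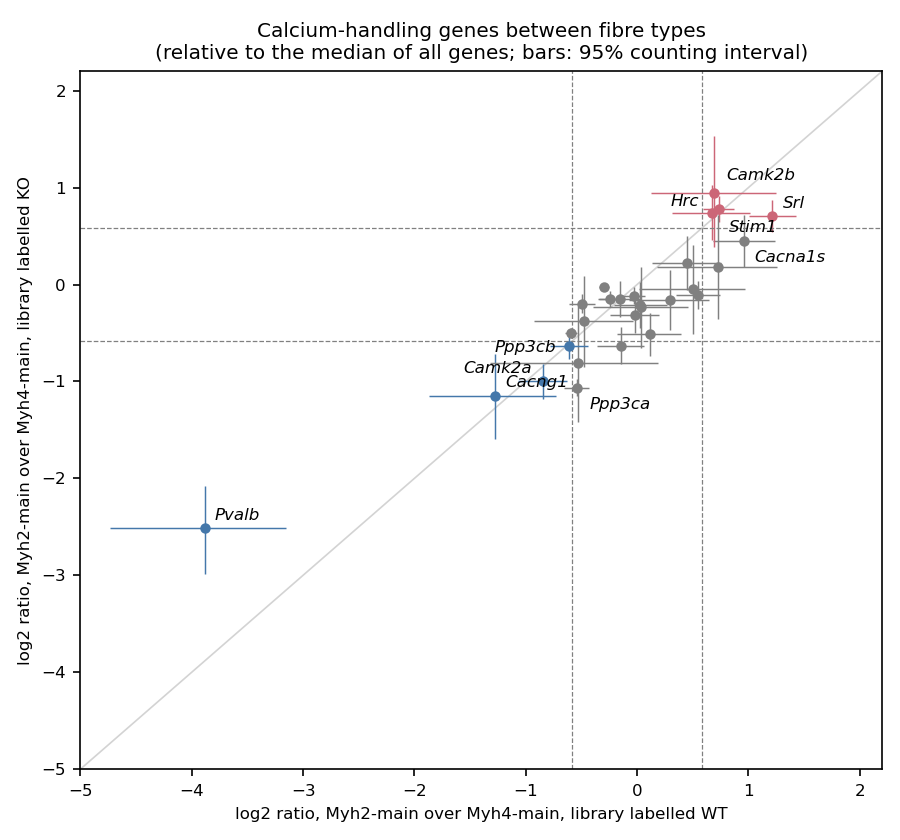
Each point is 1 calcium-handling gene, with its log2 ratio of Myh2-main over Myh4-main nuclei for the label WT (x axis) and for the label KO (y axis), both relative to the median of all genes, with 95% counting intervals. Red points were called higher and blue points lower in both libraries, dashed lines mark 1.5-fold, and Pvalb lies farthest from the origin at -3.88 and -2.52. Casq2 is not drawn, because it had 0 UMIs in Myh4-main nuclei labelled WT.

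Casq2, which encodes calsequestrin 2, the cardiac and slow-fibre calcium buffer of the reticulum, had the steepest gradient upward. Labelled WT it had 0 UMIs in Myh4-main nuclei, 106 UMIs (23.6 CPM) in Myh1-main nuclei and 79 UMIs (89.2 CPM) in Myh2-main nuclei. Labelled KO the levels were 12.7 CPM from 22 UMIs, 98.6 CPM and 149 CPM in the same order. The order Myh4, Myh1, Myh2 thus held in both libraries. Set against a floor of 3 UMIs over the Myh4-main group, the levels labelled WT were 74.2-fold in Myh2-main and 19.7-fold in Myh1-main nuclei. The floor is a fixed value without counting error, so these folds are not lower limits. For KO the ratio of Myh2-main over Myh4-main on the log2 scale came to 3.61 (2.98 to 4.31). It moved by 1.42, more than this interval allows, when a main Myh gene needed at least 3 UMIs and 80%. Casq2 was also the gene of the list called higher between Myh2-main and Myh1-main nuclei, at 1.90 (1.46 to 2.34) and 0.59 (0.35 to 0.82), where 30 of the 35 were compared and 1.79% of all genes were called higher.

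Pvalb, which encodes parvalbumin, the soluble calcium buffer of the fast-fibre cytosol, ran the other way. Its level labelled WT was 251 CPM in Myh4-main nuclei, 46.6 CPM in Myh1-main nuclei and 16.9 CPM in Myh2-main nuclei. Its level labelled KO was 175 CPM, 55.5 CPM and 29.3 CPM. The log2 ratio of Myh2-main over Myh4-main was -3.88 (-4.73 to -3.15) for WT and -2.52 (-2.98 to -2.08) for KO. Pvalb was the gene called lower between Myh2-main and Myh1-main nuclei, where 2.07% of all genes were called lower, at -1.47 and -0.93.

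Other genes of the reticulum lumen were higher in Myh2-main nuclei by less. Srl, which encodes sarcalumenin, a luminal calcium-binding glycoprotein, was at 167 CPM, 304 CPM and 386 CPM in the Myh4-, Myh1- and Myh2-main nuclei labelled WT. Labelled KO it was at 289 CPM, 374 CPM and 452 CPM. The log2 ratios of Myh2-main over Myh4-main were 1.21 and 0.71. Hrc, the histidine-rich calcium-binding protein of the lumen, had ratios of 0.67 (0.32 to 1.02) and 0.74 (0.46 to 1.03). Casq1, the fast-fibre calsequestrin, was not called, with ratios of 0.11 (-0.18 to 0.40) and -0.51 (-0.74 to -0.29) that differed in sign between the libraries. Trdn, Asph and Tmem38a, which encode triadin, the junctin gene and a potassium channel of the reticulum, were also not called.

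Within the voltage sensor and release channel groups, 1 gene was called between Myh2-main and Myh4-main nuclei, Cacng1. Cacnb1 and Ryr3 were below 200 UMIs there and were not compared. Over all genes compared, 13.5% were called higher and 10.3% lower. Ryr1, the release channel of skeletal muscle, had log2 ratios of -0.03 and -0.12 between Myh2-main and Myh4-main nuclei. Cacna1s, the pore subunit of Cav1.1, was at 0.96 for WT and 0.45 for KO, and so was called in neither direction. Cacng1, the gamma subunit of Cav1.1, was lower in Myh2-main nuclei at -1.27 (-1.87 to -0.72) and -1.15 (-1.59 to -0.72). The triad genes Jph1, Jph2, Jsrp1 and Sypl2 were not called. Atp2a1, which encodes SERCA1, was at -0.59 and -0.50, of which only the value labelled WT was past 1.5-fold.

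Stim1, the luminal calcium sensor of store-operated entry, was higher in Myh2-main nuclei at 0.73 (0.60 to 0.87) and 0.78 (0.65 to 0.92). Orai1, the plasma-membrane channel that STIM1 opens, was at 0.73 and 0.18 and was not called. Among the CaMKII genes, Camk2b was higher at 0.69 (0.12 to 1.25) and 0.95 (0.38 to 1.53), and Camk2a lower at -0.85 and -0.997. The share of Camk2a among the UMIs of the 4 Camk2 genes went from 40.9% in Myh4-main nuclei to 31.5% in Myh1-main and 28.2% in Myh2-main nuclei labelled WT. Labelled KO it went from 39.4% to 34.8% and 29.8%. Ppp3cb, a catalytic subunit of calcineurin, was lower in Myh2-main nuclei at -0.61 and -0.63, and the other one, Ppp3ca, lay just outside the call at -0.54 and -1.06.

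**Figure D2:**
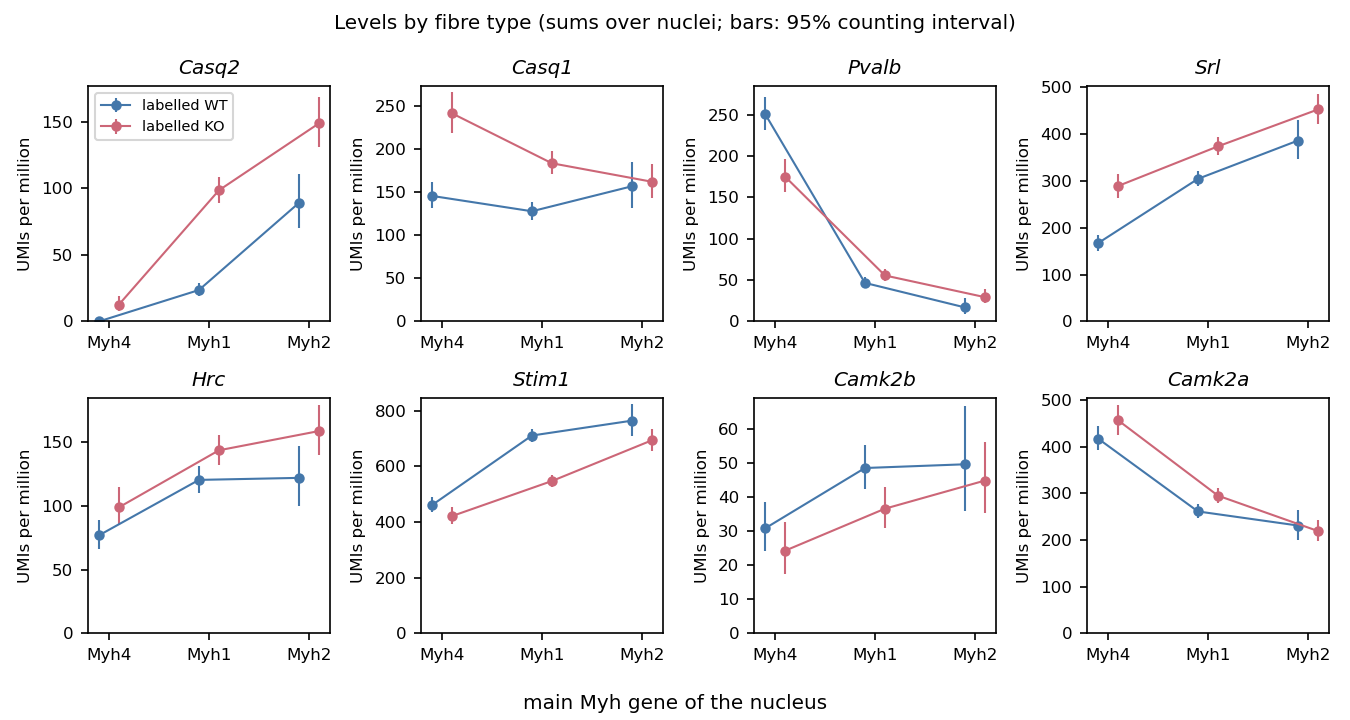
Levels of 8 genes in CPM (y axes, each starting at 0) by the main Myh gene of the nucleus (x axes), as sums over the nuclei of each library with 95% counting intervals. Casq2 climbs from 0 to 89.2 CPM for WT and from 12.7 to 149 CPM for KO, while Pvalb descends from 251 to 16.9 CPM and from 175 to 29.3 CPM.

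Between Myh1-main and Myh4-main nuclei, 30 of the 35 were compared and 2 were higher in both libraries, Casq2 and Camk2b, against 11.7% of all genes. Another 3 were lower, namely Pvalb, Camk2a and Ppp3ca, against 5.14% of all genes. Pvalb was at -2.42 and -1.63, and Ppp3ca at -0.62 and -0.85. Between Myh2-main and Myh1-main nuclei, the 28 genes other than Casq2 and Pvalb were called in neither direction.

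For 20 of the 35 genes the RefSeq table of promoters (GRCm38.p6) holds a sequence, and the upstream bases of 3 luminal buffers and of Pvalb are shown as the regions of both calsequestrin genes, of a further luminal calcium-binding protein and of the cytosolic buffer. They were chosen after their values were seen. Each is the 250 bases before the start of transcription, 5′ to 3′ on the gene's own strand, and capitals mark matches on either strand to the E-box CAGCTG or to the MEF2 consensus. The region of Casq1 is chr1:172219896-172220145 (minus strand), that of Casq2 chr3:102086165-102086414 (plus), that of Hrc chr7:45335019-45335268 (plus) and that of Pvalb chr15:78206401-78206650 (minus).
Casq1: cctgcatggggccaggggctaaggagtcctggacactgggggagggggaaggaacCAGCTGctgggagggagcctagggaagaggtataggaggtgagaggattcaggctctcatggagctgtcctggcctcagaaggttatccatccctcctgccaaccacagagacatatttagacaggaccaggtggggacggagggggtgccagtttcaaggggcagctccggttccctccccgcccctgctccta
Casq2: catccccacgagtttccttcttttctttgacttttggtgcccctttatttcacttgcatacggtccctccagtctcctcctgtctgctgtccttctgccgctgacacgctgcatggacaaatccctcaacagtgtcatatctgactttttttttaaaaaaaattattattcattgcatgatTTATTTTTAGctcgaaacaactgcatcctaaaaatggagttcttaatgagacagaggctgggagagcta
Hrc: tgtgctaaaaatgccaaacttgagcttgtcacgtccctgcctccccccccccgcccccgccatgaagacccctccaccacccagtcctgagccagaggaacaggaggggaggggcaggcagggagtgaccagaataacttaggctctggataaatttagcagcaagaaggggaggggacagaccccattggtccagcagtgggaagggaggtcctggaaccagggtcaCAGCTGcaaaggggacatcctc
Pvalb: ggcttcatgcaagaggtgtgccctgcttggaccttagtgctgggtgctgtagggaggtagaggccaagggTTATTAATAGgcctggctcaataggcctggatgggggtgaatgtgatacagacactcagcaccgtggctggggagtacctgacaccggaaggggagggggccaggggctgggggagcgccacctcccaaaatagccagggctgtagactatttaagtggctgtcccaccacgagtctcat
Casq1 and Hrc each hold 1 CAGCTG and no MEF2 match. The shown windows of Casq2 and Pvalb each hold 1 MEF2 match and no CAGCTG. Other forms of the E-box were not searched. The table also holds another Pvalb promoter, chr15:78204188-78204487 (minus strand). It has no MEF2 match and no CAGCTG and is not shown. In windows of 300 bases, MEF2 matches were found in 2 of the 20 genes, Casq2 and Pvalb, and in 3.70% of all 27025 genes of the table. The E-box CAGCTG was found in 8 of the 20 and in 18.3% of all genes. The BCL6 core TTCCTNGAA was found in 1 of the 20, Orai1, and in 1.86% of all genes. Each shown window holds a single match, so no motifs overlap there, and a match is a description of the letters only.

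Between the libraries, Casq2 and Asph of the luminal group were higher in myonuclei labelled KO under every setting tried, and Srl and Casq1 lay near the 1.5-fold line, while Cacna1s, Ryr1 and Atp2a1 lay near or below the median. Of the 35, 33 had at least 200 UMIs, and 7 of these were 1.5-fold or more higher in the library labelled KO relative to the median of all genes. They were Ryr3, Casq2, Atp2a2, Asph, Srl, Cacnb1 and Casq1. None was 1.5-fold or more lower. Over the 6976 genes with as many UMIs, 9.46% were called higher and 5.73% lower. The minimum of 200 UMIs was set on both libraries together. Ryr3, with 44 UMIs labelled WT and 201 labelled KO, passed it only through the library where it was high. The median of the 33 was 0.15 on the log2 scale, against 0 for all genes by construction. The median of all genes itself lay at -0.14 before this centring. With the library totals alone, 4 were higher and 1, Calm2, was lower, and with TMM scaling 4 were higher and 0 lower. Without the Meg3-led and Myh7-led clusters 5 were higher, as Cacnb1, Casq1 and Atp2a2 were no longer called and Hrc was. The 9.46% and 5.73% belong to the main setting. Shares of all genes under the other settings are not given here, so their counts have no background.

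**Figure D3:**
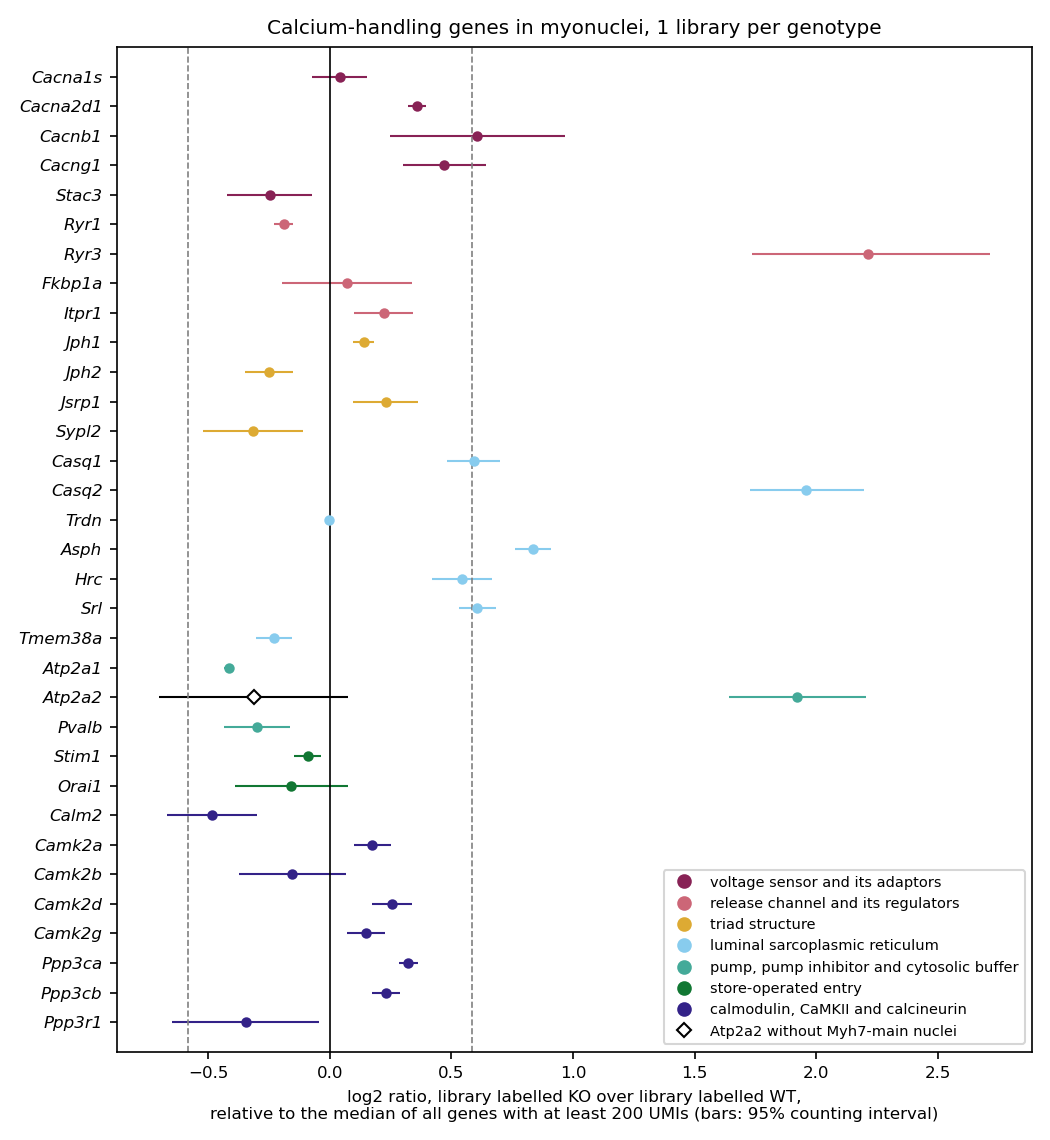
Log2 ratio of the library labelled KO over the library labelled WT in myonuclei, relative to the median of all genes, for the 33 genes with at least 200 UMIs, coloured by role, with 95% counting intervals. Dashed lines mark 1.5-fold. The open diamond gives Atp2a2 without the Myh7-main nuclei, at -0.31 against 1.92 with them.

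In the luminal group, 4 of 7 genes were called higher, against 9.46% of all genes, and the median ratio was 0.59. With TMM scaling or the library totals alone, only Casq2 and Asph of these 4 were called. Casq2 (chr3:102086415-102146514, GENCODE M21 on GRCm38) was at 193 UMIs (21.9 CPM) labelled WT and 740 UMIs (76.9 CPM) labelled KO. The log2 ratio was 1.96 (1.73 to 2.195). The Casq2 gene model overlaps other models on the same strand, and how such reads were counted is not given in the sources used here. Casq2 UMIs were found in 139 and 481 myonuclei, or 5.77% and 15.6%, and after thinning to 1000 UMIs per nucleus in 2.35% and 6.04%. The difference was spread over many nuclei, since the 10 nuclei with the most Casq2 held 19.2% and 7.97% of its UMIs. In endothelial nuclei, MuSC and tenocytes Casq2 had 0 UMIs in both libraries.

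Asph (chr4:9448069-9669344), which encodes junctin and related luminal proteins as well as an aspartyl hydroxylase, was at 259 CPM and 417 CPM, a log2 ratio of 0.83 (0.76 to 0.91). The counts are per gene, so the Asph ratio cannot be assigned to the luminal products. Srl (chr16:4480216-4541816) was at 263 CPM and 362 CPM, a ratio of 0.61 (0.53 to 0.68). Casq1 (chr1:172209894-172219868) was at 131 CPM and 179 CPM, a ratio of 0.59 (0.48 to 0.70). These lay close to the 1.5-fold line, which is at 0.58, and Hrc, at 102 CPM and 135 CPM with a ratio of 0.54 (0.42 to 0.67), lay just under it. Triadin, the anchor of calsequestrin at the junction, was level with the median at -0.00 (-0.02 to 0.01) from 59143 and 58248 UMIs. Tmem38a was at -0.23 (-0.31 to -0.16).

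In the voltage sensor group, Cacnb1, the beta subunit of Cav1.1, was called higher from only 110 and 165 UMIs, with a ratio of 0.61 (0.25 to 0.97). Cacng1 was at 0.47 (0.30 to 0.64) and Cacna2d1, the alpha2-delta subunit, at 0.36 (0.32 to 0.39). Cacna1s itself was at 142 CPM and 132 CPM, a ratio of 0.04 (-0.07 to 0.15). Stac3, the adaptor needed for coupling of Cav1.1 to the release channel, was at -0.25 (-0.42 to -0.07). The pore and its adaptor were thus within 1.5-fold of the median, and their intervals did not reach the 1.5-fold line. The interval of Cacna1s included the median and that of Stac3 did not.

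Ryr1 was at 1315 CPM and 1043 CPM, a ratio of -0.19 (-0.23 to -0.15). Ryr3 (chr2:112631355-113217096), a second ryanodine receptor that is scarce in most adult limb muscle, had 44 UMIs (4.98 CPM) labelled WT and 201 UMIs (20.9 CPM) labelled KO. Its ratio was 2.21 (1.74 to 2.72). Its UMIs were held by few nuclei, 23 and 71, and the 10 richest nuclei held 70.5% and 43.8% of them. A cluster of 16 and 11 nuclei led by Ano4, Col25a1 and Colq held 23 of the 44 UMIs labelled WT and 32 of the 201 labelled KO. Without that cluster the ratio was 3.02 (2.36 to 3.75), from 21 and 169 UMIs. In Myh1-main nuclei Ryr3 had 15 and 112 UMIs, and in the 19 Myh7-main nuclei labelled KO 21 UMIs. Fkbp1a, which encodes the FKBP12 protein bound to the release channel, was at 0.07 (-0.20 to 0.34), and Itpr1, the inositol trisphosphate receptor, at 0.22 (0.10 to 0.34).

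None of the 4 triad genes was called, where 9.46% of all genes were called higher and 5.73% lower. Jph1 and Jph2, the junctophilins that hold the tubule to the reticulum, were at 0.14 (0.10 to 0.18) and -0.25 (-0.35 to -0.15). Jsrp1 was at 0.23 and Sypl2, the triad protein mitsugumin 29, at -0.32 (-0.52 to -0.11).

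Atp2a1 (chr7:126445858-126463108), the SERCA1 pump of fast fibres, was lower in the library labelled KO without passing 1.5-fold. It was at 4946 CPM and 3360 CPM, with a ratio of -0.41 (-0.43 to -0.39). Pvalb was at 115 CPM and 84.7 CPM, with a ratio of -0.30 (-0.43 to -0.16). Atp2a2 (chr5:122453513-122502225), the SERCA2 pump of slow fibres and heart, had 134 UMIs and 500 UMIs and a ratio of 1.92 (1.64 to 2.21). Of the 500 UMIs labelled KO, 399 were in the 19 Myh7-main nuclei. Without the Myh7-main nuclei its ratio turned to -0.31 (-0.70 to 0.07), from 101 UMIs labelled KO. In Myh7-main nuclei labelled KO, Atp2a2 gave 91.5% (88.5 to 94.0) of the 436 UMIs of Atp2a1 and Atp2a2 together. In the fast and unassigned nuclei of both libraries that share was between 0.180% and 0.703%. UMIs are not per length, so these shares compare groups of nuclei and not the genes with each other. The 2 Myh7-main nuclei labelled WT gave 6 of 12 UMIs, too few to set beside the others.

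**Figure D4:**
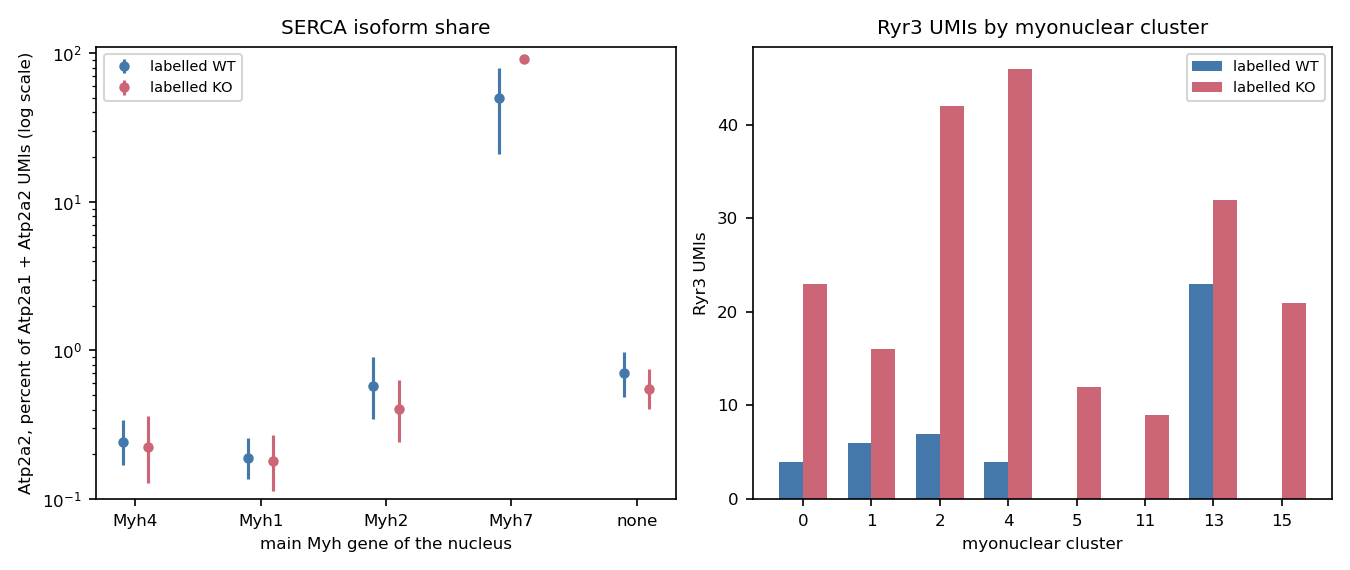
Left, Atp2a2 as a percent of Atp2a1 and Atp2a2 UMIs (log scale) by the main Myh gene of the nucleus, with 95% counting intervals, where the Myh7-main nuclei labelled KO stand at 91.5% and the fast and unassigned nuclei below 1%. Right, Ryr3 UMIs in each myonuclear cluster by library, where cluster 13 holds 23 of 44 UMIs labelled WT and no cluster holds most of the 201 UMIs labelled KO.

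Sln (chr9:53850164-53854560), which encodes sarcolipin, a small inhibitor of the SERCA pump, was below 200 UMIs in all. It had 1 UMI labelled WT and 154 UMIs labelled KO, the latter in 109 nuclei. The log2 ratio relative to the median was 7.29 (4.79 to 12.6), a wide interval set by the single UMI. Its UMIs labelled KO were found in each fast type, at 12.7 CPM in Myh4-main, 15.7 CPM in Myh1-main and 22.1 CPM in Myh2-main nuclei. In all nuclei other than myonuclei together, Sln had 0 of 2492980 UMIs labelled WT and 6 of 1726105 UMIs (3.48 CPM) labelled KO. After thinning, 0.0420% and 1.36% of myonuclei had a Sln UMI.

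Neither store-operated entry gene was called, with Stim1 at -0.09 (-0.15 to -0.04) and Orai1 at -0.16 (-0.39 to 0.07). In the calmodulin, CaMKII and calcineurin branch 0 of 8 genes were called in either direction, and 5 lay above the median. Over all 6976 genes, 9.46% were called higher and 5.73% lower, and 3488 lay above the median by construction. Calm2, 1 of the genes that encode the same calmodulin protein, had the lowest ratio of the whole list, at 66.3 CPM and 42.9 CPM and -0.48 (-0.67 to -0.30). Calm3 had 8 and 20 UMIs and is not compared. The calcineurin catalytic subunits Ppp3ca and Ppp3cb were at 0.32 (0.28 to 0.36) and 0.23 (0.17 to 0.29), and the regulatory subunit Ppp3r1 at -0.35 (-0.65 to -0.04). Camk2a, Camk2d and Camk2g lay between 0.15 and 0.26, and Camk2b at -0.15.

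The share of fibre types differed between the libraries, so the same genes were read within each type. In Myh4-main nuclei, 25 genes were compared and Asph, Srl and Casq1 were higher in the library labelled KO, at 1.03 (0.87 to 1.18), 0.92 (0.73 to 1.11) and 0.86 (0.65 to 1.06). The background there was 7.75% of genes higher and 6.85% lower. In Myh1-main nuclei, 28 were compared and Casq2, Cacng1, Asph and Casq1 were higher, at 2.21 (1.90 to 2.54), 1.02, 0.94 and 0.67, against 9.64% of genes higher and 6.7% lower. In Myh2-main nuclei, 21 were compared and only Casq2 was higher, at 0.86 (0.49 to 1.24), against 8.93% higher and 5.46% lower. In nuclei with no main Myh gene, 22 were compared and Hrc, Srl and Casq1 were higher, at 1.08, 0.76 and 0.75, against 12.4% higher and 7.39% lower. No calcium-handling gene was called lower in any of these 4 groups.

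The ratios of Asph, Srl and Hrc were above the median within each fast fibre type with intervals that left out 0. Casq1 was at 0.17 (-0.13 to 0.47), an interval that includes the median, and Asph at 0.31 in Myh2-main nuclei, the lowest values of the fast types for both, and Hrc was between 0.41 and 0.50. The differences between fibre types in these ratios were not tested. In Myh4-main nuclei Casq2 had 0 UMIs labelled WT and 22 UMIs labelled KO. The level labelled KO was 10.6-fold that of the floor of 3 UMIs. The exact lower limit of the log2 ratio, relative to the median, was 3.11. Atp2a1 lay below the median in each fast type, at -0.31 in Myh4-main, -0.45 in Myh1-main and -0.28 in Myh2-main nuclei. In the 4 largest myonuclear clusters, which were drawn without these genes, Asph was at 0.72 to 1.02, Casq1 at 0.42 to 0.70, Hrc at 0.32 to 0.80, Srl at 0.36 to 1.29 and Atp2a1 at -0.64 to -0.28.

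The share of Casq2 among the UMIs of both calsequestrin genes joined the patterns by fibre type and by library. Labelled WT it was 0 of 364 UMIs in Myh4-main nuclei, with an exact upper limit of 1.01% (3 UMIs would be 0.824%), then 15.6% (12.9 to 18.5) in Myh1-main and 36.2% (29.9 to 43.0) in Myh2-main nuclei. Labelled KO it was 5% (3.16 to 7.47), 34.95% (32.2 to 37.8) and 47.9% (43.5 to 52.3). Within each fast type the share was higher in the library labelled KO, and the intervals of the libraries did not overlap. The Myh4-main shares rest on 0 and 22 Casq2 UMIs. Shares are not given for a main Myh gene of at least 3 UMIs and 80%. That rule moved the Casq2 ratio of Myh2-main over Myh4-main nuclei labelled KO by 1.42. Ryr3 gave 1.96% (1.70 to 2.25) of the Ryr1 and Ryr3 UMIs labelled KO, and 23.9% (15.4 to 34.1) in its Myh7-main nuclei.

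Of 54 other genes of calcium handling, 33 had at least 200 UMIs in myonuclei. Of these, 4 were higher and 2 lower in the library labelled KO, with a median of 0.09, against the 9.46% higher and 5.73% lower over all genes, so these shares were near the background. The 3 highest ratios were those of Myoz2, which encodes calsarcin 1, a calcineurin-binding protein of the Z-disc, at 1.45, of Micu2, a regulator of mitochondrial calcium uptake, at 0.74, and of the caveolin gene Cav3 at 0.74. The 3 lowest were those of Pln, the phospholamban inhibitor of SERCA2, at -1.32, of the sodium-calcium exchanger Slc8a3 at -0.78 and of the scaffold gene Homer1 at -0.42. Pln had 269 and 106 UMIs. The other SERCA inhibitor, Sln, was below 200 UMIs in all and is not set beside Pln.

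Outside myonuclei, several of the 35 genes were as high as or higher than in myonuclei, and others stood near the level of the myonuclear markers there. In 6 other classes of nuclei the 7 myonuclear markers together stood at 2.33% to 12.9% of their myonuclear level. Ttn and Neb stood at 1.61% to 9.89%, and Ckm at 11.6% to 96.2%. Ryr1, Trdn and Atp2a1 were between 1.39% and 16.6%, within or near these ranges. Pvalb was between 10.2% and 95.2%, close to the range of Ckm, and the part of free RNA in its levels was not tested.

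Casq2 was high in a single other class, the pericyte or smooth muscle nuclei, with 115 UMIs (313 CPM) labelled WT and 95 UMIs (332 CPM) labelled KO. These levels were 1432% and 432% of the myonuclear level of each library, and the difference in Casq2 between the libraries in myonuclei was not seen there. Atp2a2 was above its myonuclear level in all 6 classes, at 169% to 2493%. Itpr1 was highest in endothelial nuclei, at 926 CPM and 931 CPM against 116 CPM and 123 CPM in myonuclei. Fkbp1a was also high in endothelial nuclei, at 555% and 531% of the myonuclear level. Stim1 was at 653 CPM and 818 CPM in pericyte or smooth muscle nuclei. Ryr3 was found in MuSC, the muscle stem cells, with 13 UMIs (47.5 CPM) and 8 UMIs (41.9 CPM).

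**Figure D5:**
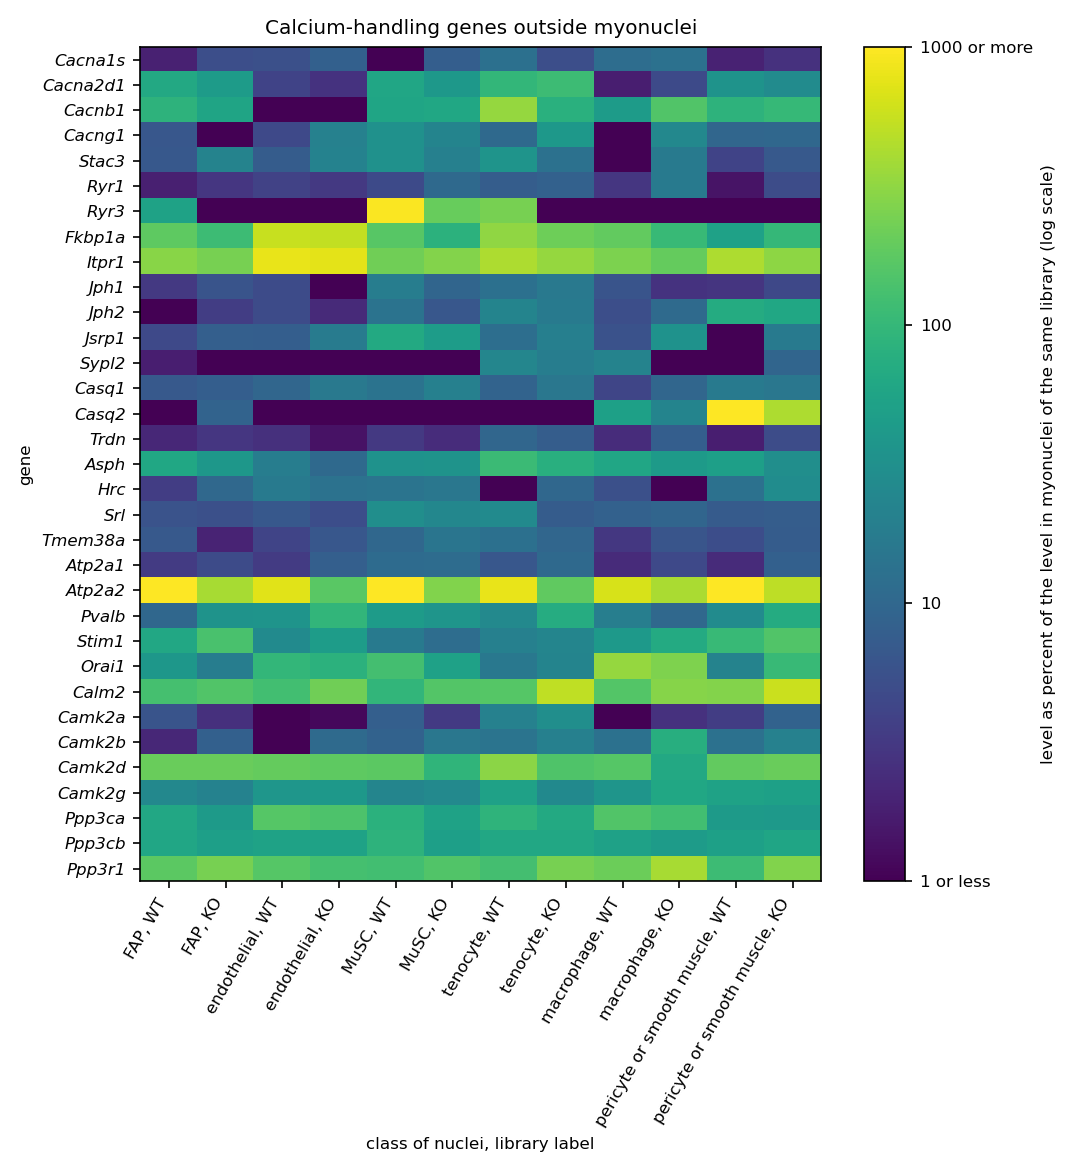
Levels of 33 calcium-handling genes (rows) in 6 classes of other nuclei by library label (columns), as a percent of the level in myonuclei of the same library on a log colour scale from 1 or less to 1000 or more. Atp2a2, Itpr1 and Camk2d are bright across most classes, Casq2 is bright in the pericyte or smooth muscle columns, and Ryr1, Trdn and Atp2a1 are dark throughout.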

How the data were processed

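Nuclei from TA muscle were sorted on 7-AAD and sequenced in 1 library per genotype. The deposited files hold whole UMI counts for each gene and barcode, which the authors made with Cell Ranger 7.0.0 on mm10 per the labels. The labels name a Multiome kit and the study's methods a 3′ kit, and whether introns were counted is not given in the sources used here. Nuclei with 200 to 5000 genes and at most 5% mitochondrial UMIs were kept. The threshold of Scrublet (scanpy 1.11.5) marked only 8 and 4 barcodes, so the highest doublet scores were removed instead, 115 (3.03%) and 134 (3.27%). Nuclei were clustered with Seurat 5.3.0 (RPCA integration, 2000 variable genes, 30 components, resolution 0.5) without the 35 genes, and clusters above 30000 CPM of the 7 markers, a line set after seeing the values, were taken as myonuclei. Counts were summed per library and group. Log2 ratios with exact conditional intervals (scipy 1.17.1) were centred on the median of genes with at least 200 UMIs. There is 1 sample per group, so no test was run. The calculation was tested on simulated data. Members and lists were chosen with earlier results of these data known, and named genes are the 35, Bcl6, the Myh genes and the 3 highest and 3 lowest of the 54 others. Of the 35 genes, 2 overlap another listed gene on the same strand (Casq2 and Ppp3r1) and 14 on the other strand, including Ryr3 and Asph. How reads in such overlaps were counted is not given in the sources used here. TMM factors came from edgeR 4.0.16, and other scalings, filters, thinning to 1000 UMIs and a stricter main Myh rule (3 UMIs and 80%) were tried.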

Additional observations from a re-analysis of the deposited data

Results flagged for a closer look

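For 4 of the calcium-handling genes the ratio of the library labelled KO over the library labelled WT had counting intervals on opposite sides of the median in different fast fibre types, among types where the gene had at least 200 UMIs. These differences were not tested, since each value compares 1 library with 1 library. The share of all genes that meet the same rule is not given here, so the count of 4 has no background. Cacna1s was at 0.30 in Myh4-main nuclei and at -0.29 in Myh2-main nuclei. Pvalb was at -0.39 in Myh4-main nuclei and at 0.41 in Myh1-main nuclei. Jph1 was at -0.0857 in Myh4-main nuclei, 0.15 in Myh1-main nuclei and 0.15 in Myh2-main nuclei. Trdn was at -0.12 in Myh4-main nuclei, 0.10 in Myh1-main nuclei and 0.0814 in Myh2-main nuclei. These log2 values were taken against the median of all genes, and none passed 1.5-fold.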

How the results depend on the processing

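The count of 7 genes higher in the library labelled KO became 4 with TMM scaling, 4 with the library totals alone and 4 with the 3 fast fibre types weighted equally, and was 5 to 8 otherwise. The shares of all genes called under these settings are not given here, so the counts describe the listed genes without a background. The calls on Ryr3, Casq2 and Asph held in each of these settings. Cacnb1 was not called without doublet removal, with TMM or median-of-ratios scaling, or with library totals alone. Equal weights and leaving out the Meg3-led and Myh7-led clusters also removed the call on Cacnb1. Srl was not called with TMM scaling, library totals alone or equal weights, and Casq1 not without doublet removal, with the 50-UMI minimum, TMM, median-of-ratios scaling or library totals alone, nor without the Meg3-led and Myh7-led clusters. The count of 0 lower became 2 after thinning (Calm2 and Ppp3r1), 1 with the library totals alone (Calm2) and 1 with equal weights (Atp2a2). Atp2a2 turned from 1.92 to -0.60 with equal weights, to -0.29 without the Meg3-led and Myh7-led clusters and to -0.31 without the Myh7-main nuclei. The last 2 settings were chosen after seeing the data. The count of 5 genes higher in Myh2-main nuclei became 3 after thinning, and the count of 4 lower was 4 or 5. After thinning and with the stricter main Myh rule, Ppp3cb was no longer called lower and Ppp3ca was. Casq2, Srl and Stim1 were called higher and Pvalb, Cacng1 and Camk2a lower in every setting of this comparison. The largest shift of a value here was 1.42, for Casq2 labelled KO with the stricter main Myh rule. Of 429 alternative values of the library comparison, 375 moved by less than their counting interval, and of 456 values by fibre type 436 did. With 1 library per group no replicate could be left out. No paired analysis was possible because each group holds a single library. Depth limits Sln, Calm3, Cacnb1 and Ryr3, whose UMIs numbered 201 or fewer in each library.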
